A study of Mus musculus with 8 samples.

Results

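The deoxyribonuclease genes Dnase1, Dnase1l1, Dnase1l3, Dnase2a and Trex1 were followed in whole mouse kidney, as 5 of the 23219 genes in the deposited table. They were selected by name as a family after Dnase1 had been seen to be much lower in the mutant kidneys, so the values of Dnase1 between the groups chose the family and are given as a description, without a test. Its relatives were taken by name with earlier results of these data known. The control group was 4 kidneys from mice aged 2 months with floxed Mta2 alleles (Mta2flx/flx, libraries 3401, 3486, 3586 and 3587). The mutant group was 4 kidneys of the same age and floxed genotype that also carried Six2Cre (Six2Cre Mta2flx/flx, libraries 3382, 3387, 3487 and 3489). Six2 is a gene of the progenitors of the nephron epithelium, so the Cre driver is directed at that lineage, while whole kidney also contains cells of other origin. The labels name no Cre for the controls. Separate animals are not stated outright, so each p-value reflects the spread among these kidneys only, which may be technical in part.

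Deoxyribonucleases cut DNA in different places. Dnase1 is secreted by epithelia and digests free DNA in fluids such as urine, is abundant in kidney, and is inhibited by monomeric actin. Dnase1l3 is secreted mainly by macrophages and dendritic cells and digests DNA wrapped in nucleosomes or carried in vesicles, while Dnase1l1 is a relative attached to the cell membrane. Dnase2a encodes the acid nuclease of lysosomes, which degrades engulfed DNA, and Trex1 encodes an exonuclease of the cytosol that removes DNA able to set off the cGAS and STING sensors. Loss of DNASE1L3 or TREX1 is a known cause of lupus-like or interferon-driven disease in people.

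The start regions of the family differ in the density of CpG, a dinucleotide that is frequent at the starts of broadly used genes. Windows of 300 bases, from 250 before to 50 after an annotated start, were taken from RefSeq (GRCm38.p6, the assembly also called mm10), where 4 of the 5 genes had a window. Dnase1 and Dnase2a are printed because they hold the fewest and the most CpG in the family. Both are on the plus strand and run 5′ to 3′, with each CpG in capitals, at chr16:4036786-4037085 for Dnase1 and chr8:84908505-84908804 for Dnase2a.
Dnase1: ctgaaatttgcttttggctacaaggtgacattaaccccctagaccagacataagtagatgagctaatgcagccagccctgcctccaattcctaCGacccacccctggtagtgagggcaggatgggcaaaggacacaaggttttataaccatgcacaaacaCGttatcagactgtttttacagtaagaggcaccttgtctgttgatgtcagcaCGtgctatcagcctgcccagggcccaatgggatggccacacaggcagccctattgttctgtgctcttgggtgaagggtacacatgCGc
Dnase2a: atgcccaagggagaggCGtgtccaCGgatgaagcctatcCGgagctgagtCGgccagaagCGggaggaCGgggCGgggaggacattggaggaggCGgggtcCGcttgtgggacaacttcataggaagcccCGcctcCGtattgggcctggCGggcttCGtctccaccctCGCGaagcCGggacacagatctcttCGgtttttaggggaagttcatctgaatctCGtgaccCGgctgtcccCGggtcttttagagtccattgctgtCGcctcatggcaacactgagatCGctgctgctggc
The Dnase1 window had 4 CpG and the Dnase2a window had 22, against a median of 7 over 32851 windows. Dnase1l1 had 11 and 10 in its pair of windows and Trex1 had 5 and 7. The motif TATAAA, the TATA box, was found on the minus strand in the part shared by the overlapping Dnase1 windows and in no window of the other genes, with both strands searched. It occurs in 13.6% of all windows. GTTAAT, a half-site of the kidney and liver factors of the HNF1 type, was found once, also on the minus strand, in the printed Dnase1 window and occurs in 7.10% of all windows. AGGTCA, a half-site of nuclear receptors, was in neither printed window and occurs in 16.3% of all windows. It was found once in the Dnase1 window that is not printed and once in a Trex1 window. CCAAT was found 2 times in each printed window, on the plus strand for Dnase1 and on the minus strand for Dnase2a, and occurs in 37.4% of all. These are matches of letters only.

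Levels are given in BPM, the sequenced bases assigned to a gene per megabase assigned to all genes, a unit read from the steps of the deposited values. The 8 libraries held 164 to 468 megabases assigned to genes. Small RNA genes took 15.9% to 34.3% of the bases in the controls and 25.9% to 52.6% in the mutants (means 25.9% ± 7.90 and 38.2% ± 14.1, SD over 4 kidneys; 2-sided exact permutation p = 0.229), which lowers the level of other genes at a common total. The median of 13060 genes tested had a log2 difference (mutant minus control) of -0.23. This median ran from 0.25 when small RNA share was a covariate to -0.38 without mutant 3382. All 18 proximal tubule markers had coverage in every library. The targeted gene Mta2 was at 49.0, 35.1, 67.9 and 52.4 BPM in control and 52.6, 33.1, 14.3 and 48.9 BPM in mutant kidneys, which overlap. Gene values do not show single exons, so this level is a weak check of the genotype. The Y-linked genes Ddx3y, Kdm5d, Eif2s3y and Uty had coverage in all 8 libraries. The X-linked gene Xist was barely covered, at 0.163 ± 0.212 BPM in control and 0.439 ± 0.758 BPM in mutant kidneys (SD, n = 4 each). Its highest value was 1.57 BPM, in mutant 3382.

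Dnase1, the secreted nuclease, carried nearly all of the family's coverage in the controls and was much lower in the mutants. Its level was 844, 580, 620 and 594 BPM in controls 3401, 3486, 3586 and 3587. It was 91.6, 52.3, 86.4 and 88.3 BPM in mutants 3382, 3387, 3487 and 3489. Every mutant kidney lay far below every control, and the highest mutant was under the lowest control by several fold. The means were 660 ± 124 and 79.6 ± 18.3 BPM (SD, n = 4 each), a ratio of 8.28, and the log2 difference was -3.05 (SE 0.30) on the log2(BPM + 1) scale. This was the lowest log2 difference of the 13060 genes tested, which is what drew attention to the gene. Relative to the median gene it was -2.83. Of all genes tested, 14 passed a limma adjusted p of 0.05, which is 0.107% (4 lower, 0.0306%, and 10 higher, 0.0766%). Median scaling called 7 lower and 52 higher. Groups did not overlap, with all mutants lower, for 3.4% of genes, and with all mutants higher for 0.888%. An unadjusted p under 0.05 was reached by 6.33%. Dnase1 was among both sets, and nothing is read from that, since its choice rested on this difference.

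Dnase1 is on the plus strand of chromosome 16 at 4036942 to 4040024 (GENCODE vM21, mm10). Many bases lie behind its values even in the mutants, with 105231 to 272166 bases per control library and 12366 to 41361 per mutant library. Read lengths are unknown, so these are not numbers of reads, and no counting interval is given. Per kilobase of annotated exon, Dnase1 ranked 129 to 201 among 20298 protein-coding genes in the controls and 846 to 1487 in the mutants. It therefore remained among the better covered genes in mutant kidney. Within each group its spread was moderate, with a coefficient of variation of 18.8% in the controls and 23.03% in the mutants.

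**Figure D1:**
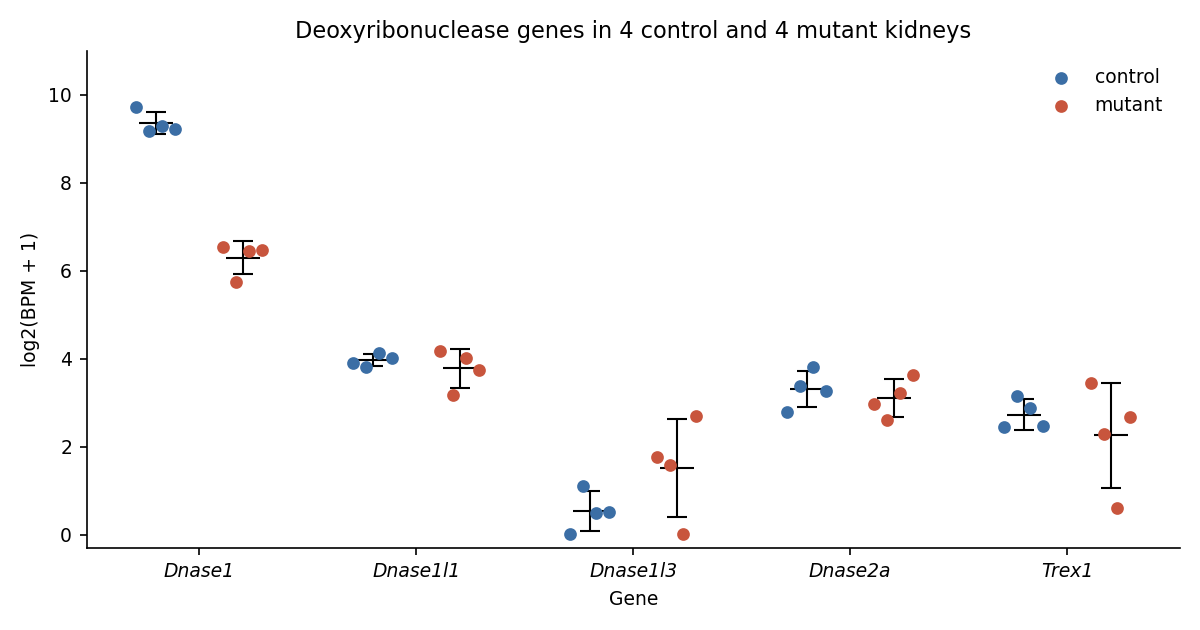
Level of each deoxyribonuclease gene as log2(BPM + 1) in every library, with blue points for the 4 controls, red points for the 4 mutants, and black bars for the mean and 1 SD of each group. Dnase1 is separated by group, from 580 to 844 BPM in the controls and from 52.3 to 91.6 BPM in the mutants, while the groups overlap for the other 4 genes.

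Dnase1l3, the nuclease of macrophages and dendritic cells and the other secreted member, was barely covered. Its level was 0.00409, 1.16, 0.412 and 0.425 BPM in controls 3401, 3486, 3586 and 3587, where the first is a gene with 0 bases. It was 2.42, 1.98, 0.00339 and 5.50 BPM in mutants 3382, 3387, 3487 and 3489, and mutant 3487 also had 0 bases. Of the mutants, 3 lay above every control and 1 at the bottom, so the groups overlapped. These levels rest on at most 210 bases in a control library and on 396, 466 and 2577 bases in mutants 3382, 3387 and 3489. The log2 difference was 0.98 (SE 0.53, 95% interval -0.14 to 2.10, limma adjusted p = 0.828), which did not pass. The gene entered the test only because 3 mutants and 1 control reached 1 BPM. Without mutant 3487 the log2 difference was 1.48 (adjusted p = 0.408), and its adjusted p ran from 0.124 to 0.999 over the 12 alternatives in which it was tested.

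Markers of macrophages and dendritic cells also differed between libraries, and their part in the Dnase1l3 level was not tested. The summed level of their 24 markers was 368, 624, 729 and 753 BPM in the controls. It was 3501, 928, 422 and 2197 BPM in mutants 3382, 3387, 3487 and 3489. A few abundant genes weigh most in such a sum, with Lyz2 at 1057, H2-Ab1 at 782 and Cd74 at 630 BPM in mutant 3382. In each group the kidney with 0 bases of Dnase1l3 was the one with the lowest marker sum, but the highest marker sum, in mutant 3382, did not go with the highest Dnase1l3 level. Of these markers 17 of 24 had coverage in all 8 libraries and none was at 0 in all. Among 20 tested markers 19 had a positive log2 difference and 0 passed with limma over all genes, while 7 had an unadjusted p under 0.05. Of all genes tested, 71.6% had a negative log2 difference, 0.107% passed and 6.33% had an unadjusted p under 0.05. Of the 20 tested markers, 3 had all mutants above all controls, as had 0.888% of all genes tested. In whole kidney, more or fewer cells of a type cannot be told apart from more or less RNA per cell.

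Dnase1l1, the membrane-attached relative of Dnase1, did not differ detectably. Its level was 14.0, 13.1, 16.5 and 15.1 BPM in the controls. It was 17.0, 8.06, 15.3 and 12.4 BPM in mutants 3382, 3387, 3487 and 3489, so the highest and the lowest values were both mutant and the groups overlapped. The log2 difference was -0.19 (SE 0.39, 95% interval -1.01 to 0.63, limma adjusted p = 0.942), and it turned to 0.047 under median scaling and to 0.013 under quantile normalization.

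Dnase2a, the lysosomal acid nuclease, also gave no detectable difference. Its level was 5.90, 9.46, 12.9 and 8.63 BPM in control and 6.86, 5.11, 8.34 and 11.5 BPM in mutant kidneys. The groups overlapped over most of their range. The log2 difference was -0.20 (SE 0.43, 95% interval -1.10 to 0.70, limma adjusted p = 0.945), turning to 0.029 under median scaling.

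Trex1, the cytosolic exonuclease, overlapped between the groups and was lowest in a single mutant. Its level was 4.41, 7.88, 6.30 and 4.52 BPM in the controls. It was 9.89, 3.90, 0.529 and 5.34 BPM in mutants 3382, 3387, 3487 and 3489. Mutant 3382 was the highest of all 8 kidneys and mutant 3487 the lowest, with 155 bases against 920 to 2767 in the other libraries. The log2 difference was -0.48 (SE 0.54, 95% interval -1.60 to 0.65, limma adjusted p = 0.900). Without mutant 3487 it was 0.071 (adjusted p = 0.998, in a range of 0.567 to 0.9998 over 18 alternatives), so its sign rested on that library, which also had the highest small RNA share. The annotated span of Trex1 lies wholly within Atrip on the same strand (1802 bases of overlap). How coverage was divided between them is not known, so the Trex1 value is uncertain. Atrip, a partner of the DNA damage kinase Atr, was at 10.5 ± 0.863 BPM in control and 5.60 ± 3.05 BPM in mutant kidneys (SD, n = 4 each; log2 difference -0.99, limma adjusted p = 0.799). All mutants lay below all controls for Atrip, as for 3.4% of all genes tested.

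The order of the genes can be compared only per length. In the controls the mean level per kilobase of annotated exon was 214 BPM for Dnase1, 6.93 for Dnase1l1, 5.04 for Trex1, 1.71 for Dnase2a and 0.0973 for Dnase1l3. The ranges of Dnase1l1 and Trex1 overlapped, and each of the other steps in this order separated all 4 controls. Length here joins the exons of all annotated transcripts, 5389 bases for Dnase2a and 1147 for Trex1. Levels per kilobase depend on that choice, so the step from Trex1 to Dnase2a may not hold for the transcripts present. In the mutants the order by mean stayed the same, at 25.8, 6.21, 4.29, 1.47 and 0.480 BPM per kilobase. There Dnase1 still lay above all other members in every library, but each of the other neighbours in the order overlapped. Dnase1 supplied 94.5% to 97.2% of the summed BPM of the family in the controls and 71.7% to 78.2% in the mutants. The sum of the other 4 genes overlapped between the groups, at 24.3 to 36.2 and 19.04 to 36.1 BPM. No pair of members shared an exact run of more than 16 bases in their transcripts, so none is a near-identical copy of another.

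The authors' deposited table gives ratios of the mutant to the control mean of 0.121 for Dnase1, 0.897 for Dnase1l1, 4.94 for Dnase1l3, 0.861 for Dnase2a and 0.851 for Trex1. They divide the means of the same values, so they are no second source. For Dnase1l3 the ratio rests on at most 210 bases in a control library and on 2577 in mutant 3489. Its log2 difference of 0.98 is smaller because 1 BPM was added and logs were averaged.

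Among other DNA nucleases and their partners no gene passed the test. Of 26 such genes in the table, 23 were tested. Of these, 0 passed with limma over all genes in either direction, 0 had an unadjusted p under 0.05, and none had groups that did not overlap. The shares over all genes tested were 0.107%, 6.33% and 4.29%. At such shares, 0 calls among 23 genes says little about this set. There were 18 negative and 5 positive log2 differences, from -0.81 to 1.04, with a median of -0.27 against -0.23 for all genes tested, of which 71.6% were negative. The smallest unadjusted p belonged to Slx1b, a structure-specific endonuclease subunit, and Apex1, the endonuclease of abasic sites. Slx1b was at 7.82 ± 2.45 BPM in control and 4.07 ± 1.57 BPM in mutant kidneys (SD, n = 4 each; log2 difference -0.81, SE 0.45, limma adjusted p = 0.828). Apex1 was at 16.4 ± 5.02 and 9.72 ± 2.49 BPM (log2 difference -0.69, SE 0.41, limma adjusted p = 0.836). Endog, the mitochondrial endonuclease and the most covered gene of this set, was at 62.6 ± 13.2 and 47.1 ± 16.9 BPM, and Pld4, an exonuclease of endosomes in myeloid cells, at 4.15 ± 2.27 and 13.6 ± 14.5 BPM. Endog and Pld4 were picked out after their values were seen. Dnase2b and Trex2, relatives of Dnase2a and Trex1, had 0 bases in all 8 libraries.

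**Figure D2:**
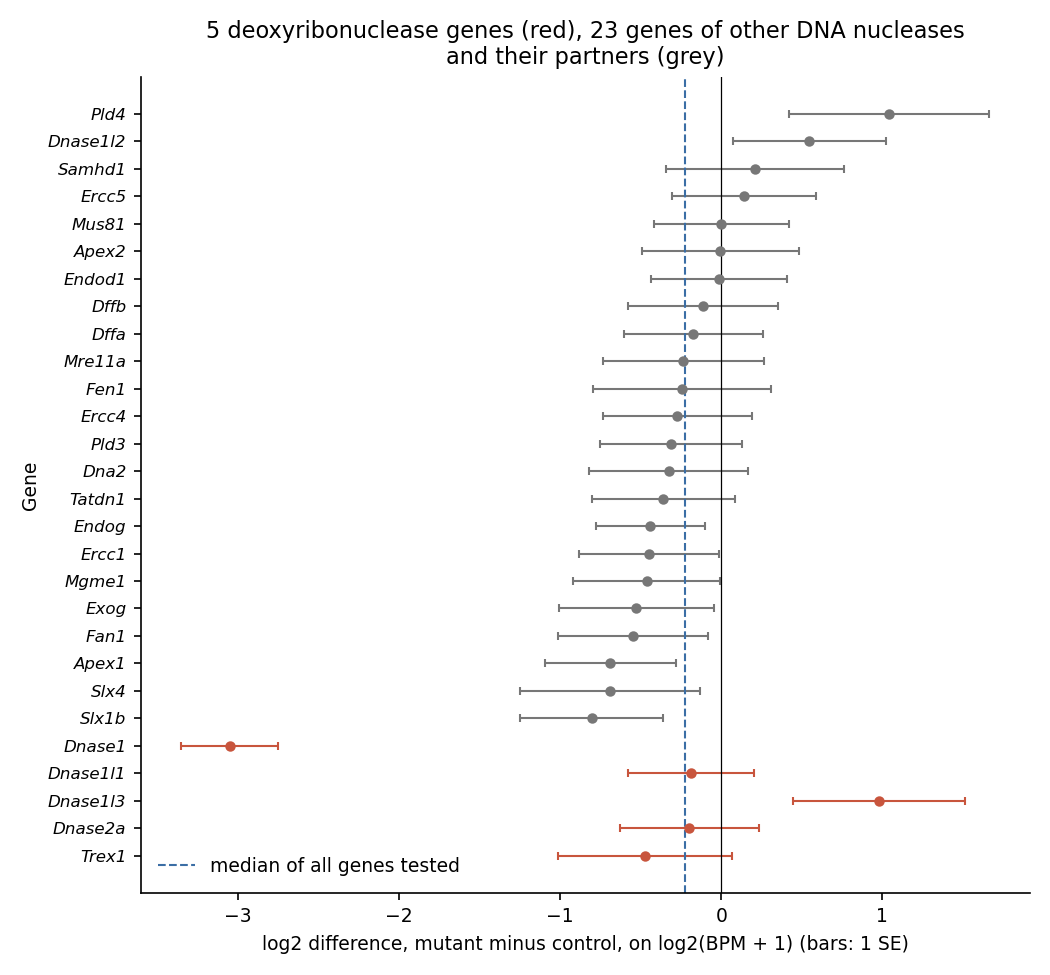
Log2 difference (mutant minus control, on log2(BPM + 1)) of the 5 deoxyribonuclease genes in red and of 23 genes of other DNA nucleases and their partners in grey, with bars of 1 SE and a dashed line at the median of all genes tested (-0.23). Dnase1 stands at -3.05, and all grey points lie between -0.81 and 1.04.

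Genes that sense DNA or respond to that signal also gave no calls. Of 22 tested, 12 were positive and 10 negative, with a median log2 difference of 0.11 against -0.23 for all genes. Among them 0 passed with limma over all genes and 0 had an unadjusted p under 0.05, against 0.107% and 6.33% of all genes tested. At such shares, 0 calls among 22 genes says little about this set. Unc93b1, which carries nucleic acid receptors to endosomes, was at 8.05 ± 4.39 BPM in control and 23.2 ± 17.8 BPM in mutant kidneys (SD, n = 4 each; log2 difference 1.17, limma adjusted p = 0.799). Rnaseh2b, a subunit of the enzyme that removes ribonucleotides from DNA, was at 23.02 ± 3.58 and 15.0 ± 2.17 BPM (log2 difference -0.58, limma adjusted p = 0.847). All 4 mutants were below all controls for Rnaseh2b, as for 3.4% of all genes tested. Mb21d1, the older symbol of the DNA sensor cGAS, was at 1.01 ± 0.322 and 1.71 ± 0.772 BPM (log2 difference 0.41, limma adjusted p = 0.896).

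Actin and its binding partners bear on Dnase1 because actin monomers inhibit the enzyme. They gave 0 calls with limma among 11 tested genes, where 0.107% of all genes tested were called, with 8 positive and 3 negative. Of them 2 had an unadjusted p under 0.05, as had 6.33% of all genes tested. The median log2 difference of the 11 genes was 0.15, against -0.23 for all genes tested. Those 2 genes were Capg, an actin-capping protein of macrophages, at 26.4 ± 5.06 and 61.8 ± 33.5 BPM (log2 difference 1.03, limma adjusted p = 0.645), and Gc, the plasma scavenger of actin monomers, at 14.0 ± 6.05 and 36.8 ± 22.2 BPM (log2 difference 1.21, limma adjusted p = 0.659). Beta-actin itself, Actb, was at 448 ± 163 and 378 ± 225 BPM (log2 difference -0.37, limma adjusted p = 0.896). Mb21d1 and Actb were singled out with their values known.

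Tubule markers were set beside Dnase1 within each library, as a description, since 71.6% of all genes tested had a negative log2 difference and Dnase1 was chosen as a low one. All 18 proximal tubule markers had a negative log2 difference with a median of -0.48, as had all 8 of the thick ascending limb with a median of -0.36. Of 7 distal convoluted tubule markers 6 were negative with a median of -0.91, and of 12 collecting duct markers 8 were negative with a median of -0.12. None of these markers passed with limma over all genes, where 0.107% of all genes tested did. An unadjusted p under 0.05 was reached by 3, 2, 4 and 1 of them, and by 6.33% of all genes tested. In the same order, 4, 1, 4 and 0 markers had all mutants below all controls, as had 3.4% of all genes tested. Set against the mean of each list within the same library, Dnase1 was lower in every mutant than in every control. The mean difference between the groups was -2.55 on the log2 scale against the proximal tubule list and -2.61 against the thick ascending limb list. It was -2.26 against the distal convoluted tubule list and -2.89 against the collecting duct list.

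Markers of other kinds were also compared between the groups, and their part in the Dnase1 level was not tested. Of all genes tested, 71.6% had a negative log2 difference, with a median of -0.23. A limma adjusted p under 0.05 was reached by 0.107% and an unadjusted p under 0.05 by 6.33%. All mutants lay below all controls for 3.4%. All 5 tested genes of tubular injury had a positive log2 difference, and among them Havcr1 rose, from 52.0 ± 38.9 to 435 ± 155 BPM (SD, n = 4 each; limma adjusted p = 0.0103). The summed level of the 5 erythroid genes in the table was 2837 to 5229 BPM in the controls and 791 to 2333 BPM in the mutants. All 5 had a negative log2 difference, and the alpha-globin genes Hba-a1 (-2.07, limma adjusted p = 0.00765) and Hba-a2 (-1.86, limma adjusted p = 0.0164) fell. These near-identical genes can share reads, so the split between them is uncertain. The 8 podocyte markers and the 9 endothelial markers all had negative log2 differences, with medians of -0.31 and -0.63 and 0 calls with limma, and 0 and 2 of them had an unadjusted p under 0.05. Of 6 genes taken as male-biased, 5 had a negative log2 difference with a median of -0.70 and 0 passed with limma, while 2 had an unadjusted p under 0.05. Of 6 genes taken as female-biased, 4 had a positive log2 difference and 2 a negative one, and all 6 had an unadjusted p under 0.05. Whether each listed gene is sex-biased in kidney was not checked here. The amino acid transporter Slc7a12 rose from 4.29 ± 4.76 to 106 ± 43.4 BPM (SD, n = 4 each; limma adjusted p = 7.6e-05). The negative members were Cyp2a4, at -1.47 with all mutants below all controls (limma adjusted p = 0.0731), and Cyp2a5, at -0.88 (limma adjusted p = 0.646), a closely related pair of cytochrome P450 genes named with their values known.

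**Figure D3:**
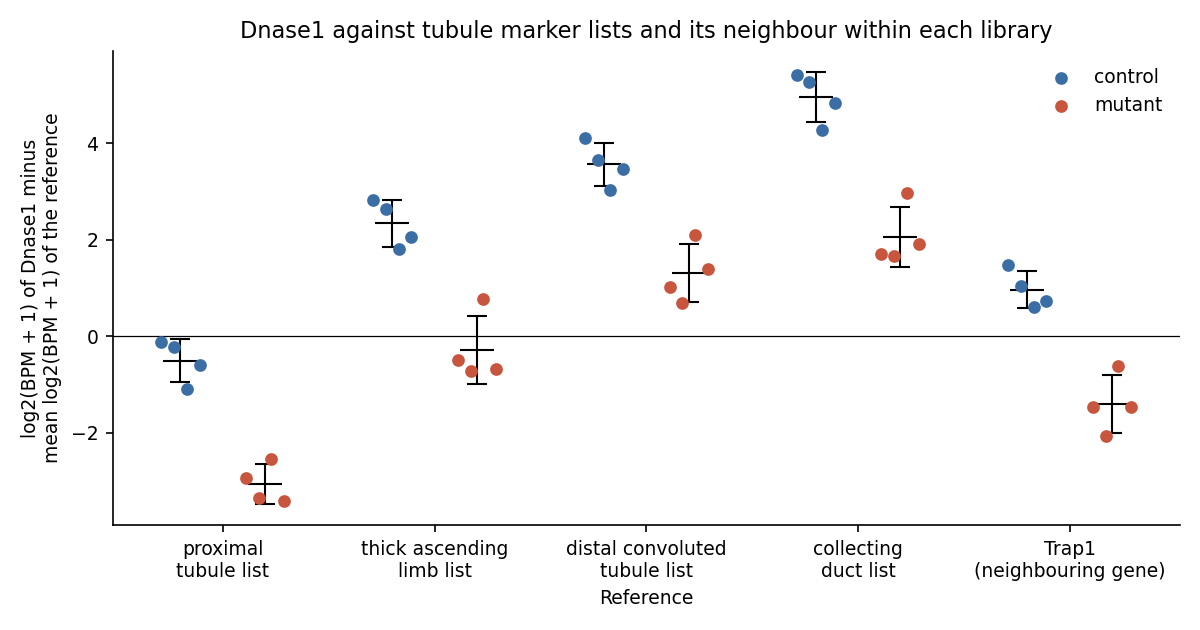
Dnase1 level as log2(BPM + 1) minus the mean log2(BPM + 1) of a tubule marker list, or minus that of the neighbouring gene Trap1, in each library, with blue control points, red mutant points and bars for the mean and 1 SD. The mutants lie below the controls for each reference, with mean differences of -2.89 to -2.26 for the lists and -2.37 for Trap1.

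Genes around Dnase1 on chromosome 16 were compared because a neighbour overlaps its end. The table held 5 genes within 100 kb, all tested, all with a negative log2 difference, as had 71.6% of all genes tested. Of these 5, 0 were called with limma, against 0.107% of all genes tested. Trap1, a mitochondrial chaperone encoded on the opposite strand, overlaps the end of Dnase1 by 54 bases. Trap1 was at 336 ± 56.4 BPM in control and 213 ± 55.8 BPM in mutant kidneys (SD, n = 4 each; log2 difference -0.68, SE 0.30, limma adjusted p = 0.766). All mutants lay below all controls for Trap1, as for 3.4% of all genes tested. Its unadjusted limma p was 0.0366, and 6.33% of all genes had one under 0.05. Slx4, a scaffold of DNA repair nucleases, had a log2 difference of -0.69 (limma adjusted p = 0.861). Crebbp, a histone acetyltransferase, was at -0.62 (0.857), Cluap1, a protein of cilia, at -0.48 (0.886), and Nlrc3, an inhibitor of immune signalling, at -0.16 (0.960), where the values in brackets are limma adjusted p. Strand is not known to have been used in the counting, so coverage in the shared end of Dnase1 and Trap1 cannot be told apart.

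**Figure D4:**
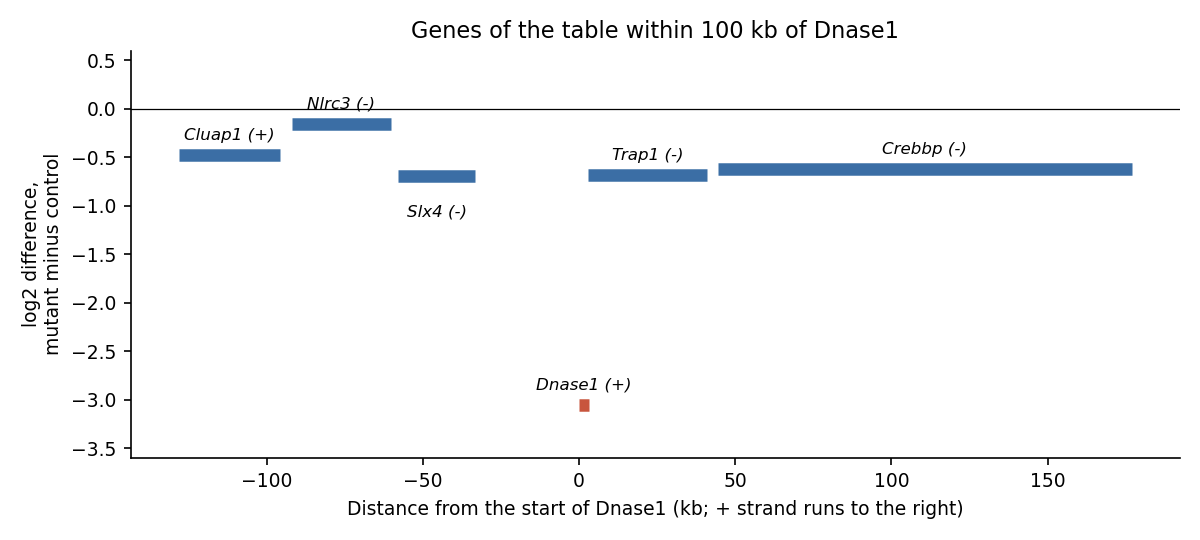
Genes of the table within 100 kb of Dnase1, drawn to scale by distance in kb from the Dnase1 start on the horizontal axis, with the strand in brackets and the log2 difference (mutant minus control) on the vertical axis. Dnase1 in red is at -3.05, and the 5 neighbours in blue lie between -0.69 and -0.16.

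Overlaps at the other members were with Taz for Dnase1l1 (426 bases on the opposite strand, 37.2 ± 4.41 BPM in control and 33.3 ± 5.20 BPM in mutant kidneys) and with Mast1 for Dnase2a. Mast1 was at 0.133 ± 0.258 and 0.453 ± 0.498 BPM and was too low to be tested. In mm10 Dnase1l1 lies on chromosome X at 74273217 to 74282337, Dnase1l3 on chromosome 14 at 7964533 to 7994573, Dnase2a on chromosome 8 at 84908560 to 84922915 and Trex1 on chromosome 9 at 109057933 to 109059734.

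The genes most like Dnase1 across the 8 libraries were Treh, Igfbp3, Ggct, Fdx1 and Cycs, by Pearson correlation of log2(BPM + 1). Their r with Dnase1 was 0.978, 0.976, 0.975, 0.962 and 0.960. This measure is a description, because the points fall into the control and the mutant group and share the scaling of each library. For all 5 genes every mutant was below every control, which their likeness to Dnase1 favours by construction, and none passed with limma. Igfbp3, a binding protein of insulin-like growth factors, was at 467 ± 56.5 and 213 ± 22.7 BPM (SD, n = 4 each; log2 difference -1.13, limma adjusted p = 0.150). Ggct, an enzyme of glutathione breakdown, was at 22.1 ± 4.74 and 7.08 ± 1.28 BPM (log2 difference -1.51, limma adjusted p = 0.180). Treh, the trehalase of the brush border, was at 58.9 ± 4.37 and 33.8 ± 3.29 BPM (log2 difference -0.79, limma adjusted p = 0.652). After removal of each group mean, the closest genes were Fdx1, Mettl15, Rnmtl1, Kif9 and Ralgps1, with r from 0.930 to 0.957 over the same 8 libraries. Fdx1, a mitochondrial electron carrier, was the gene shared by both sets. With group means removed, r between Dnase1 and its relatives was 0.72 for Dnase1l1, 0.15 for Dnase2a, -0.04 for Trex1 and -0.17 for Dnase1l3.

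**Figure D5:**
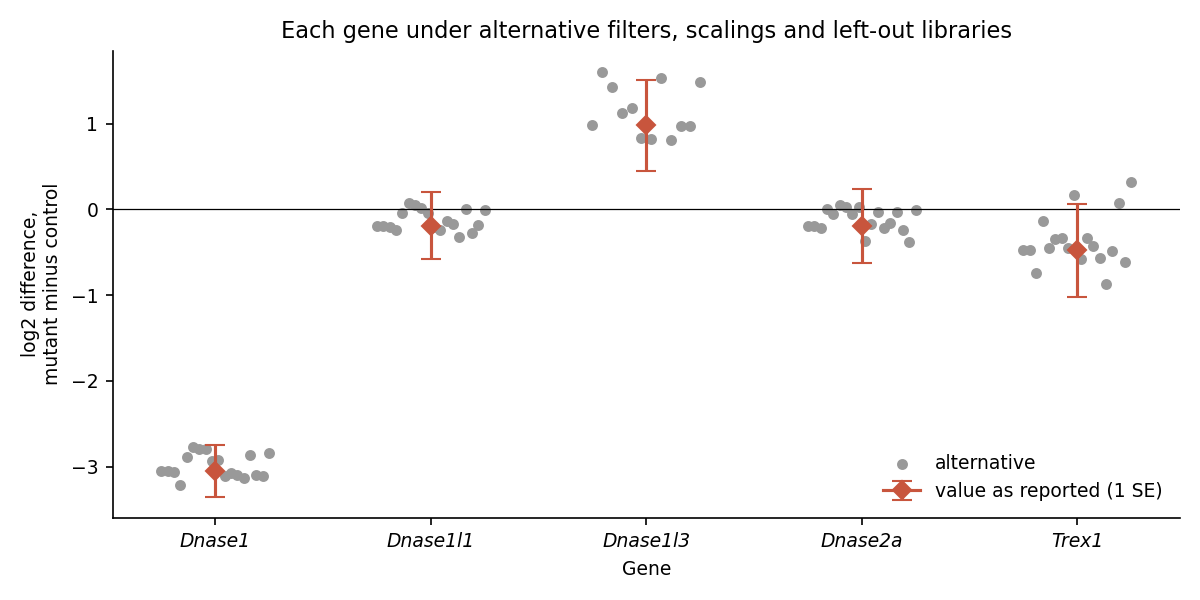
Log2 difference (mutant minus control) of each deoxyribonuclease gene, with a red diamond and 1 SE for the reported value and grey points for alternative filters, scalings and left-out libraries. Dnase1 stays between -3.21 and -2.77, Dnase1l3 lies between 0.81 and 1.60 where it could be tested, and the other 3 genes fall on either side of 0.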

How the data were processed

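RNA of 8 mouse kidneys was sequenced after depletion of ribosomal RNA, with column purification and DNase treatment, using Ion Total RNA-seq libraries, per the labels' protocols. The deposited table holds a signal per gene and library, with the authors' group means, ratio and p-value. Its unit is not named. The deposited values were read as coverage, that is assigned bases plus 1, scaled by the authors to nearly the same total in every library, because 100% were whole multiples (tolerance 1e-06) of the smallest value in the same library, while only 0.0435% of positive values lay under 20 steps. Bedtools and mm10 were used per the submitters' processing notes. No source used here names the aligner, the annotation or how strand was treated. The ratio in the deposited table divides the mutant by the control mean, and the authors' p-value there, which is unadjusted, was not used.

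Values were divided by 280 to give BPM, and assigned bases were obtained from the smallest value of a library. A gene with 0 bases keeps the added base, which gives it a small value above 0. The 13060 genes with at least 1 BPM in 4 libraries were tested with limma 3.58.1 (R 4.3.3) as log2(BPM + 1), modelling a trend of variance with level. Tests were 2-sided, and Benjamini-Hochberg adjusted p under 0.05 was called. Differences on this scale understate changes of low genes. The fit was tested on simulated data. Small RNA genes were the 698 genes of small RNA classes in GENCODE vM21 or RefSeq. The family and the gene lists (other nucleases, DNA sensing, actin, kidney cell types, sex-linked and sex-biased genes, injury) were chosen with earlier results of these data known. Named genes are the family, the called or else the 2 members of smallest p of the nuclease, DNA sensing and actin lists, genes within 100 kb of Dnase1, and the 5 genes most like it, leaving out predicted-gene names. Genes that overlap a member, called members of the other lists and the genes said to be picked out by value are named besides. Alternatives were other filters, pseudocounts, scalings, array weights, a covariate and leaving out each library, plus leaving out both libraries above 45% small RNA, which was chosen after seeing the data. Count-based tests were not used.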

Additional observations from a re-analysis of the deposited data

Results flagged for a closer look

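Dnase1 in control 3401, at 844 BPM, stood apart from the other 3 controls, which lay between 580 and 620 BPM. Dnase1 in mutant 3387, at 52.3 BPM, stood apart from the other 3 mutants, which lay between 86.4 and 91.6 BPM. In either group the gap to the nearest kidney exceeded the 95% limit of Dixon's test for 4 samples, which chance passes in about 1 in 20 groups, and 12 groups were examined. The log2 difference of Dnase1 was -2.93 without control 3401 and -2.86 without mutant 3387. Both flags depend on the scaling. After median scaling, Dnase1 was at 641, 551, 337 and 408 in controls 3401, 3486, 3586 and 3587. It was at 55.0, 56.8, 117 and 54.0 in mutants 3382, 3387, 3487 and 3489. On that scale control 3401 and mutant 3387 no longer stood apart, while mutant 3487 lay above the other mutants.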

How the results depend on the processing

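Dnase1 kept its direction in all 18 alternatives, between -3.21 (array weights) and -2.77 (small RNA genes left out). Because the gene was chosen for this large difference in the same values, that range is a description and adds no support. Without single libraries its log2 difference ran from -3.13 to -2.86. Dnase1l1 turned to 0.078 with small RNA genes left out, 0.047 with median scaling and 0.013 with quantile normalization, and ran from -0.32 to 0.011 without single libraries. Dnase2a turned to 0.0066 with array weights, 0.058 with small RNA genes left out, 0.029 with median scaling and 0.026 when small RNA share was a covariate, and ran from -0.37 to -0.031 without single libraries. Trex1 turned to 0.17 with the covariate and 0.33 without both libraries above 45% small RNA, and ran from -0.87 to 0.071 without single libraries. The cause was not tested. Dnase1l3 ran from 0.81 to 1.48 without single libraries. It could not be tested at 5 BPM, without control 3486, mutant 3382, mutant 3387 or mutant 3489, or without both libraries above 45% small RNA, since fewer than 4 libraries then reached the limit. No alternative brought Dnase1l1, Dnase1l3, Dnase2a or Trex1 past the threshold.

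The count of 14 genes called was 4 with no filter, 9 at 5 BPM, 9 with a pseudocount of 0.1, 73 with array weights (whose estimation stopped before its tolerance was met), 45 without the 20 most abundant genes, 59 with small RNA genes left out, 59 with median scaling, 63 with quantile normalization, 490 with the covariate and 51 without both libraries above 45% small RNA. It ran from 5 to 40 without single libraries. The 560 genes whose groups did not overlap became 2230 without both those libraries and 673 to 1401 without single libraries. The difference in small RNA share was 12.3 percentage points, and 7.52 to 16.4 without single libraries. No paired analysis was possible because the groups share no replicate numbers.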
